A study of Mus musculus with 8 samples.

Results

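The let-7 and miR-98 family was followed in the culture medium of muscle cells by taking, from the mouse miRNAs on the array, those named mmu-let-7a-5p, mmu-let-7b-5p, mmu-let-7c-5p, mmu-let-7d-5p, mmu-let-7e-5p, mmu-let-7f-5p, mmu-let-7g-5p, mmu-let-7i-5p and mmu-miR-98-5p (the species prefix is dropped from here on). These are 9 of 1881 mouse miRNAs, and all 9 were on the array. The first 8 were detected on all 8 arrays, and miR-98-5p was detected on 2 arrays. The names come from the array design and were not picked by a cut on measured values, but the family was chosen with earlier results of these data known.

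Primary myocytes from the hindlimb muscle of newborn mice, aged 1 to 3 days and labelled male, were grown in transwells, in which cells in a bottom chamber and cells on an insert share medium through a membrane with pores of 0.4 µm. The cells carried a human SOD1 transgene, either hSOD1(WT), from strain B6SJL(Tg-SOD1)2Gur/J, or hSOD1(G93A), from strain B6SJL(Tg-SOD1*G93A)1Gur/J, a mouse model of amyotrophic lateral sclerosis in which mutant SOD1 is made in many tissues. Each group is named by its bottom chamber and then its insert. WT/WT had 2 samples, and G93A/WT and G93A/G93A had 3 samples each. Every group, the control included, therefore carried human SOD1, the colonies were kept by crossing hemizygote males with B6SJLF1/J females, and no treatment was given. The mixed combination with the chambers exchanged was not analysed here. Medium was collected at 2 days in vitro and its small RNA was hybridised to 1-colour microarrays. The submitters describe every sample as a biological replicate but name no litter or culture day, so p-values measure only the spread between these samples, which may be partly technical.

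MicroRNAs of this family are recognised by their shared seed, the bases near the 5′ end with which a miRNA in an Argonaute protein pairs with messenger RNAs and lowers their output. In general let-7 miRNAs are low in stem cells and accumulate as cells differentiate, skeletal muscle precursors among them, and the RNA-binding protein LIN28 blocks the maturation of many let-7 precursors. Known let-7 targets include Ras genes, Hmga2 and Igf2bp genes. Extracellular let-7 is carried in vesicles and in protein complexes, and the mature sequences are the same in many vertebrates. The culture media held 10% foetal bovine serum during proliferation and 2% horse serum during differentiation, and the labels do not name which of the 2 was collected. Array probes read bovine, equine and mouse let-7 of identical sequence alike, and cell-free medium was not analysed here, so serum let-7 and cell-derived let-7 cannot be told apart. Nor can fewer releasing cells and less release per cell.

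The mature sequences are shown because the members differ from each other by so few bases that 1 probe may bind several of them. They are the RefSeq sequences for GRCm38.p6, written 5′ to 3′, with the seed (bases 2 to 8) in capitals.
let-7a-5p: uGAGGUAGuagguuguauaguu
let-7b-5p: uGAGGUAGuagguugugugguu
let-7c-5p: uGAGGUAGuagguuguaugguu
let-7d-5p: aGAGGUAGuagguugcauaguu
let-7e-5p: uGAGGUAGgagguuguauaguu
let-7f-5p: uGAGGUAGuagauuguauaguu
let-7g-5p: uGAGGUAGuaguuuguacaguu
let-7i-5p: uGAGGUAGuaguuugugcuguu
miR-98-5p: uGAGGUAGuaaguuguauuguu

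All 9 share 1 seed. Counted from 1 at the 5′ end and with the base of let-7a-5p first, let-7c-5p differs from let-7a-5p by A19G, let-7e-5p by U9G and let-7f-5p by G12A. The difference of let-7b-5p is A17G and A19G, that of let-7d-5p is U1A and U16C, and that of let-7g-5p is G12U and U18C. The sequence of let-7i-5p carries G12U, A17G, U18C and A19U, and that of miR-98-5p carries G11A and A19U. Every mature sequence of the 9 is 22 bases long, and the number of G and C bases runs from 7 in let-7f-5p and miR-98-5p to 10 in let-7b-5p. How far the array's probes separate these sequences was not tested.

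The members come from 12 hairpin precursors, some of them close neighbours in GRCm38.p6. On chromosome 13, minus strand, the mature let-7a-5p of Mirlet7a-1 lies at chr13:48538239-48538260, let-7f-5p of Mirlet7f-1 at chr13:48537889-48537910 and let-7d-5p at chr13:48536078-48536099, and the Mirlet7d and Mirlet7a-1 hairpins are 2064 bases apart. On chromosome 15, plus strand, let-7c-5p of Mirlet7c-2 at chr15:85706616-85706637 and let-7b-5p at chr15:85707325-85707346 come from hairpins 621 bases apart. A second let-7c-5p locus, at chr16:77599672-77599693, has its hairpin 656 bases from that of miR-99a. Likewise a second let-7a hairpin, Mirlet7a-2 on chromosome 9, plus strand, lies 5211 bases from that of miR-100. The let-7e-5p at chr17:17830366-17830387 stands between miR-99b and miR-125a. On the X chromosome let-7f-5p of Mirlet7f-2 (chrX:151912353-151912374) and miR-98-5p (chrX:151913229-151913250) come from hairpins 785 bases apart. For the hairpins of let-7g, with the mature sequence at chr9:106178846-106178867, and let-7i, at chr10:122985698-122985719 on the minus strand, no other miRNA hairpin was found within 10000 bases on the same strand. The search was incomplete, since it did not return the miR-99b hairpin beside let-7e, and the opposite strand was not searched.

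Each level below is the log2 of an array's gene signal after scaling to the 75th percentile of the 423 miRNAs detected on all 8 arrays. The precision is limited by the number of arrays, and the scanner software's own error was 7.78 to 10.1% of the signal for the 8 members detected on all arrays. The arrays held 450 to 563 detected miRNAs, and the signal sums ran from 115265 to 203040. The scale factor, by which an array's signals were multiplied, was 1.13 and 1.44 in WT/WT, 0.593 to 0.933 in G93A/WT and 0.973 to 1.31 in G93A/G93A, so the G93A/WT arrays were the brightest before scaling. The arrays shared 1 slide, on which G93A/WT took row 1 together with WT/WT 1, and G93A/G93A took row 2 together with WT/WT 2. A comparison of G93A/WT with G93A/G93A is thus also a comparison of rows, bridged by a single control array in each. The labelled cell type was checked on 6 muscle-enriched miRNAs: 4 were detected on all arrays, with summed scaled signals of 4522 to 5194 in WT/WT, 4341 to 5258 in G93A/WT and 4094 to 5063 in G93A/G93A, and miR-208b-3p was undetected.

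Levels of let-7b-5p, one of the pair encoded on chromosome 15, stood at 9.11 and 9.38 in WT/WT, at 8.59, 8.84 and 8.89 in G93A/WT, and at 8.77, 8.90 and 8.79 in G93A/G93A. Both WT/WT arrays lay above all other arrays, and G93A/WT and G93A/G93A overlapped. Its partner let-7c-5p gave 9.46 and 9.80 in WT/WT, 9.06, 9.37 and 9.40 in G93A/WT, and 9.50, 9.33 and 9.27 in G93A/G93A. The WT/WT arrays of let-7c-5p lay above the G93A/WT arrays, while G93A/G93A 1 fell between the WT/WT arrays. The means were 9.24 ± 0.19 (SD, n = 2), 8.77 ± 0.16 (n = 3) and 8.82 ± 0.07 (n = 3) for let-7b-5p in that order of groups, and 9.63 ± 0.24, 9.28 ± 0.19 and 9.37 ± 0.12 for let-7c-5p.

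A different order was seen for let-7g-5p, which is encoded on chromosome 9 with no neighbouring hairpin found. Its levels were 5.07 and 5.22 in WT/WT, 5.38, 5.78 and 5.88 in G93A/WT, and 5.10, 5.24 and 5.42 in G93A/G93A. All G93A/WT arrays were above both WT/WT arrays, and G93A/G93A overlapped with both other groups. The other member with no neighbouring hairpin found, let-7i-5p, gave 7.46 and 7.52, then 7.48, 7.76 and 7.81, then 7.25, 7.60 and 7.39, and its 3 groups overlapped.

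The 3 members encoded together on chromosome 13 were let-7a-5p, let-7d-5p and let-7f-5p. Both let-7a-5p and let-7f-5p also have a hairpin on another chromosome. For let-7d-5p the levels were 6.66 and 6.83 in WT/WT, 6.74, 7.02 and 7.12 in G93A/WT, and 6.58, 6.68 and 6.66 in G93A/G93A. For let-7f-5p they were 6.48 and 6.61, then 6.49, 6.75 and 6.87, then 6.41, 6.27 and 6.27. In both, all G93A/G93A arrays lay below all G93A/WT arrays, and G93A/WT overlapped with WT/WT. Levels of let-7a-5p were 7.99 and 8.37, then 8.02, 8.30 and 8.37, then 7.95, 7.98 and 8.02, where the highest G93A/G93A array was only just below the lowest G93A/WT array. The G93A/G93A arrays of let-7a-5p were close together (7.98 ± 0.03, SD, n = 3), and those of WT/WT were apart (8.18 ± 0.27, n = 2).

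For let-7e-5p, encoded between miR-99b and miR-125a, the levels were 5.37 and 5.75 in WT/WT, 5.33, 5.49 and 5.65 in G93A/WT, and 5.22, 5.29 and 5.16 in G93A/G93A. All G93A/G93A arrays were below all arrays of the other 2 groups.

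The dimmest member, miR-98-5p, was detected in G93A/WT 2, at a level of 2.45, and in G93A/WT 3, at 1.73. It was not detected on G93A/WT 1, on either WT/WT array or on any G93A/G93A array. Its unscaled signals on those 2 arrays were 9.23 and 4.40, at 5.84 and 4.02 times their own error. No fold is given, because 6 of 8 arrays, 1 of G93A/WT included, have no measured level. Detection in G93A/WT is also what brought miR-98-5p into the tested set, so it is left out of the counts of members past a threshold below, and no p-value is given for it. The 2 arrays that detected it had the lowest scale factors, 0.593 and 0.755, and the most detected miRNAs, 563 and 520. The part of array brightness in this detection was not tested.

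**Figure D1:**
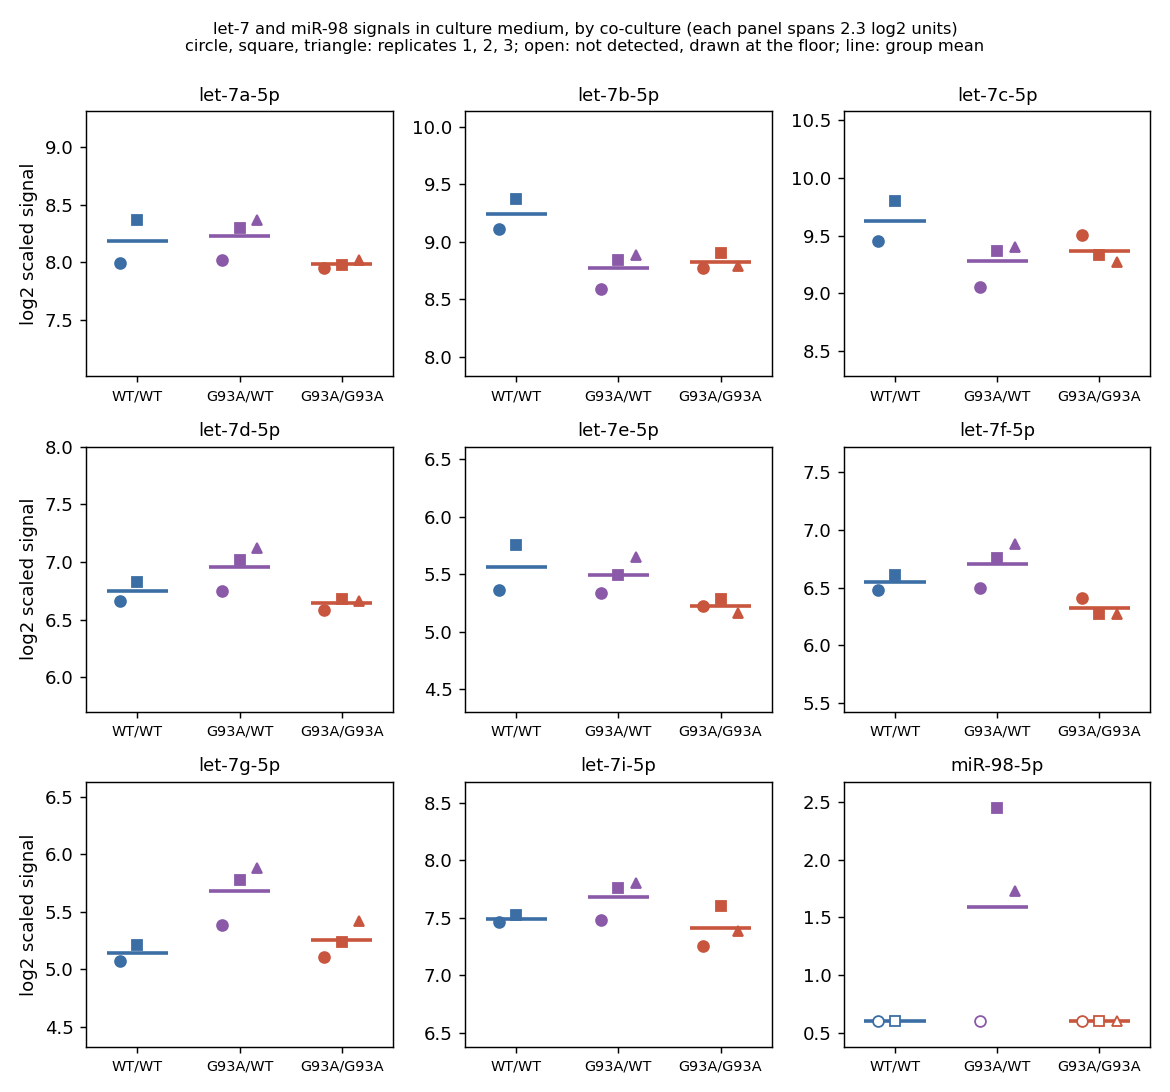
Log2 scaled signal of each member by co-culture, with 1 point per array (circle, square and triangle for replicates 1, 2 and 3), a line at the group mean and open symbols where the miRNA was not detected and is drawn at the floor. All panels span the same range of log2 units at different levels; both WT/WT arrays of let-7b-5p, at 9.11 and 9.38, sit above all other arrays, and all G93A/WT arrays of let-7g-5p, at 5.38 to 5.88, sit above WT/WT.

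The first comparison asked how the medium of fully mutant co-cultures differed from that of control co-cultures. No member passed an adjusted p of 0.05 in G93A/G93A against WT/WT, by limma with Benjamini-Hochberg adjustment over 538 tested miRNAs, where 8.55% of tested miRNAs passed. The member with the lowest adjusted p was let-7b-5p, with a log2 difference of −0.42 ± 0.14 (SE) and adjusted p = 0.108. For let-7e-5p the difference was −0.34 ± 0.15 with adjusted p = 0.208. Differences of the other 6 members detected on all arrays ran from −0.26 for let-7c-5p to 0.11 for let-7g-5p, with SEs of 0.14 to 0.18. In total 7 members had a difference below 0 and 1 above it, where 42.9% of all tested miRNAs were above 0. The scaled signal of miR-98-5p was at the floor in both groups, and it has no fold.

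The median difference of the 9 members was −0.20 (−0.21 for the 8 detected on all arrays), beside −0.01 over all tested miRNAs and −0.11 over the 290 tested miRNAs numbered below 1000, let-7 included. Without WT/WT 2 the member median was −0.047 and that of all tested miRNAs −0.026, so the distance between them rests on that array. At an unadjusted p under 0.05 stood 1 of the 8 members detected on all arrays, let-7b-5p, where 13.4% of all tested miRNAs stood and were lower. Groups did not overlap for let-7b-5p, let-7e-5p and let-7f-5p, all lower in G93A/G93A, where 22.7% of tested miRNAs did not overlap and were lower. With the slide row as a block, which is the same estimate as within row 2 alone, the let-7b-5p difference was −0.55 with adjusted p = 0.171 by limma and the median of the members was −0.29. Without scaling, let-7d-5p and let-7i-5p changed sign, to 0.06 and 0.08.

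The second comparison asked whether mutant cells in the bottom chamber, with WT cells on the insert, gave another medium than WT cells in both. Here the differences lay on both sides of 0. No member passed the adjusted threshold in G93A/WT against WT/WT, where 3.9% of tested miRNAs passed. The lowest difference was that of let-7b-5p, −0.47 ± 0.14 (adjusted p = 0.0958, limma), followed by let-7c-5p at −0.35 ± 0.16 (adjusted p = 0.231). The highest among members detected on all arrays was that of let-7g-5p, 0.54 ± 0.18 (adjusted p = 0.128). Without array scaling let-7b-5p and let-7c-5p had positive differences of 0.30 and 0.42, and with the percentile taken over each array's own detected miRNAs let-7c-5p was at 0.06, but these settings moved all tested miRNAs upward, to medians of 0.79 and 0.44.

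Between these extremes were let-7d-5p at 0.21, let-7i-5p at 0.19, let-7f-5p at 0.16, let-7a-5p at 0.05 and let-7e-5p at −0.07. The median of the 9 members was 0.16 (0.11 for the 8 detected on all arrays), beside 0.04 over all tested miRNAs. Without G93A/WT 1 the median of the 9 was 0.27. Without G93A/WT 2 or 3 miR-98-5p was not tested, and the median of the 8 other members was 0.076 and 0.029. At an unadjusted p under 0.05 were 2 of the 8 members, let-7b-5p and let-7g-5p, where 24.5% of all tested miRNAs were. Groups did not overlap for 3 of the 8 members, let-7b-5p and let-7c-5p lower and let-7g-5p higher, where 45.4% of tested miRNAs did not overlap. With the slide row as a block, which is the estimate within row 1, let-7b-5p was at −0.34 (adjusted p = 0.357) and let-7g-5p at 0.61 (adjusted p = 0.252). Without G93A/WT 1, the array of that group with the highest scale factor, let-7g-5p passed at 0.69 (adjusted p = 0.0476, limma) and no other of the 8 members did. In that setting 35 of 529 tested miRNAs passed.

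The third comparison set the fully mutant medium against the mixed one, co-cultures that differed by design in the genotype on the insert. Their arrays also differed in slide row and brightness. No member passed in G93A/G93A against G93A/WT, where 10.6% of tested miRNAs passed. The difference of let-7f-5p was −0.39 ± 0.12 (adjusted p = 0.0857, limma), that of let-7g-5p was −0.43 ± 0.16 (adjusted p = 0.126) and that of let-7d-5p was −0.32 ± 0.12 (adjusted p = 0.130). For let-7e-5p, let-7i-5p and let-7a-5p the differences were −0.27, −0.27 and −0.25. Against these stood let-7b-5p at 0.05 ± 0.12 and let-7c-5p at 0.09 ± 0.15, whose 95% intervals were −0.24 to 0.34 and −0.25 to 0.44. Without scaling all tested miRNAs had a median of −0.68, and let-7b-5p and let-7c-5p, at −0.56 and −0.51, were again above the other 6 members, at −1.03 to −0.86. With the slide row as a block both were negative, at −0.22 and −0.25.

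In this comparison the median was −0.27 both for the 9 members and for the 8 detected on all arrays, beside −0.10 over all tested miRNAs and −0.20 over those numbered below 1000. At an unadjusted p under 0.05 were 3 of these 8 members, let-7d-5p, let-7f-5p and let-7g-5p, all lower, where 18.6% of tested miRNAs were and were lower. The groups did not overlap for let-7a-5p, let-7d-5p, let-7e-5p and let-7f-5p, all lower in G93A/G93A, where 19.1% of tested miRNAs did not overlap and were lower. Without G93A/WT 1, 3 of the 8 members passed by limma: let-7d-5p at −0.43 (adjusted p = 0.0424), let-7f-5p at −0.50 (adjusted p = 0.0298) and let-7g-5p at −0.58 (adjusted p = 0.0375). In that setting 82 of 529 tested miRNAs passed. No within-row value exists, since these groups share no row.

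**Figure D2:**
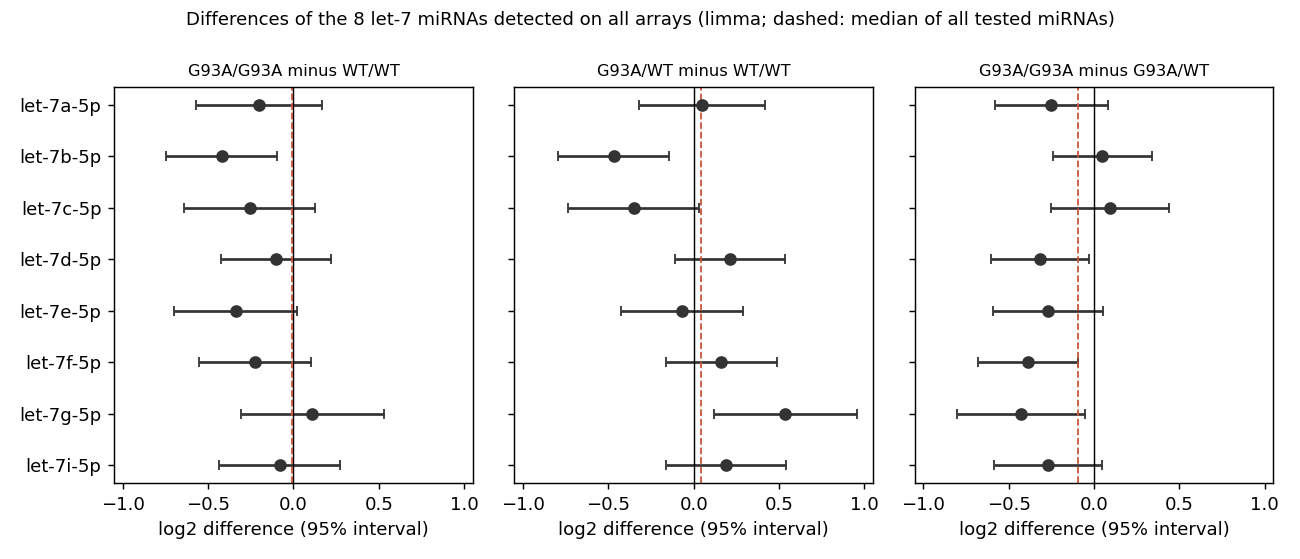
Log2 differences of the 8 members detected on all arrays in 3 comparisons, with points for the limma estimate, bars for 95% intervals and a dashed line at the median of all tested miRNAs; miR-98-5p is left out because it was not detected on 6 of 8 arrays. In the middle panel let-7b-5p (−0.47) and let-7g-5p (0.54) lie on opposite sides of 0; without array scaling let-7b-5p is at 0.30.

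**Figure D3:**
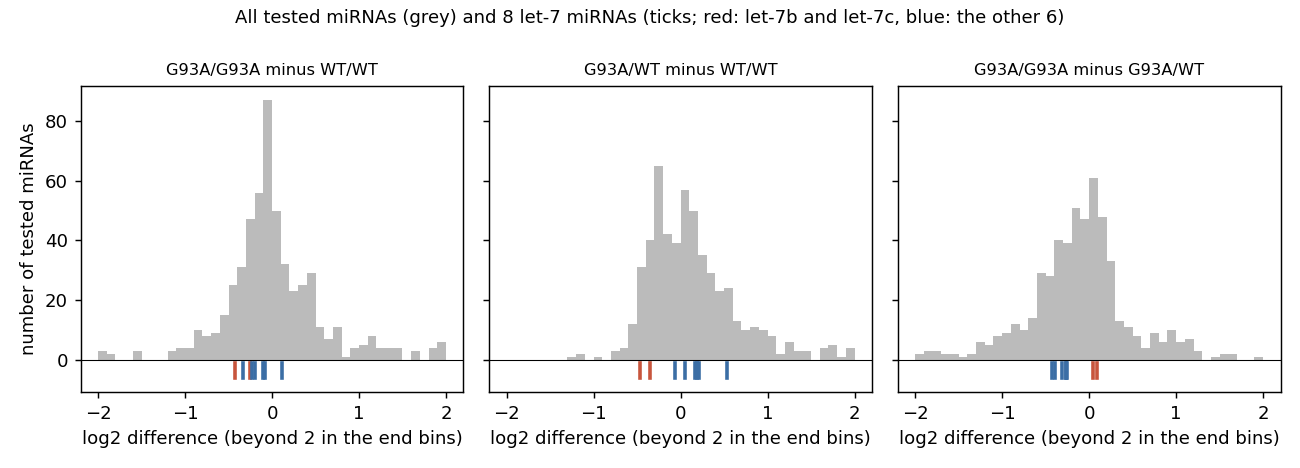
Histograms of the log2 difference of all 538 tested miRNAs (grey, with values beyond the axis in the end bins) and the 8 members detected on all arrays as ticks, let-7b-5p and let-7c-5p in red and the other 6 in blue. The ticks lie inside the bulk of the grey distribution in all 3 panels, and in G93A/G93A minus G93A/WT the red ticks, at 0.05 and 0.09, stand above the blue ones; without scaling the red values are −0.56 and −0.51 and the blue ones −1.03 to −0.86, all lower by a common shift.

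The mixed co-culture was also set against the midpoint of the other 2 groups, where a value of 0 means that it lay halfway. No member passed, and 7.43% of tested miRNAs did. For let-7g-5p the log2 distance from the midpoint was 0.48 ± 0.14 (adjusted p = 0.0950, limma), for let-7f-5p it was 0.27 (adjusted p = 0.161) and for let-7d-5p 0.27 (adjusted p = 0.169). For let-7b-5p and let-7c-5p the distance was −0.26 (adjusted p = 0.176) and −0.22 (adjusted p = 0.289). An unadjusted p under 0.05 was found for 3 of the 8 members detected on all arrays, let-7d-5p, let-7f-5p and let-7g-5p, all above the midpoint, where 16.7% of tested miRNAs were. The distances of 6 of the 8 were above 0, with a median of 0.19 (0.23 over all 9 members) beside 0.06 over all tested miRNAs, of which 55.0% were above 0. Without G93A/WT 3 the median of the 8 members detected on all arrays, the only members tested there, was 0.12. Without array scaling let-7b-5p and let-7c-5p were at 0.43 and 0.47, and all tested miRNAs had a median of 0.73. The comparisons share arrays, so their values for 1 member are not independent. Without G93A/WT 1, let-7g-5p passed here too (0.63, adjusted p = 0.0284, limma), where 52 of 529 tested miRNAs passed.

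The log2 ratio of 2 members on the same array does not depend on array scaling, and it separated the mixed co-culture from the control. It is not a ratio of abundances, since probes differ in response, and is used here only between arrays. These ratios were examined after the values had been seen and carry no test. The ratio of let-7b-5p to let-7g-5p was 4.04 and 4.16 in WT/WT, 3.21, 3.06 and 3.01 in G93A/WT, and 3.67, 3.66 and 3.37 in G93A/G93A. The 3 groups did not overlap, with WT/WT highest, G93A/G93A between and G93A/WT lowest. The ratio of let-7c-5p to let-7g-5p was 4.39 and 4.58, then 3.68, 3.59 and 3.52, then 4.40, 4.09 and 3.86, where G93A/WT lay below both other groups and the latter overlapped. For let-7b-5p to let-7d-5p the ratios were 2.45 and 2.55, then 1.84, 1.82 and 1.77, then 2.19, 2.22 and 2.13, again with no overlap between any 2 groups. Of all member pairs, let-7b-5p to let-7g-5p had the widest range over the arrays. Every member pair that separated all 3 groups contained let-7b-5p. The share of all miRNA pairs that separate all 3 groups was not computed.

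In the authors' own processed values of these arrays, the log2 ratio of let-7b-5p to let-7g-5p was 3.98 and 4.08 in WT/WT, 3.30, 3.17 and 3.02 in G93A/WT, and 3.57, 3.63 and 3.44 in G93A/G93A, in the same order of groups. Over the 28 pairs among the 8 members, the ratio did not overlap between G93A/WT and WT/WT in 24, where 46.1% of the 89253 pairs of miRNAs detected on all arrays did not overlap. The count was 13 of 28 between G93A/G93A and G93A/WT, where 37.5% of all pairs did not overlap, and 12 of 28 between G93A/G93A and WT/WT, where 45.4% did not. Pairs that share a member are not independent. Beside the group, brightness differed: the G93A/WT arrays had the lowest scale factors. In order of rising scale factor, the let-7b-5p to let-7g-5p ratio was 3.06, 3.01 and 3.21 in G93A/WT 2, 3 and 1. It was then 3.37 in G93A/G93A 3, 4.16 in WT/WT 2, 3.67 and 3.66 in G93A/G93A 1 and 2, and 4.04 in WT/WT 1. Every G93A/WT array had a lower scale factor than both WT/WT arrays, so group and brightness cannot be told apart between these groups. The part of brightness, slide row or probe overlap in these ratios was not tested.

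Each member was also taken relative to the mean of the 8 members on its array and centred over the 8 arrays. By this measure let-7b-5p had group means of 0.27 in WT/WT, −0.23 in G93A/WT and 0.04 in G93A/G93A, and let-7c-5p had 0.17, −0.21 and 0.10. The opposite order was found for let-7g-5p, with −0.30, 0.20 and −0.0014, and for let-7d-5p, with −0.10, 0.08 and −0.01. Arrays of G93A/WT and WT/WT did not overlap for let-7b-5p and let-7c-5p (lower in G93A/WT) and for let-7d-5p, let-7f-5p, let-7g-5p and let-7i-5p (higher), and they overlapped for let-7a-5p and let-7e-5p. These are 6 of 8, where 29.8% of the 423 miRNAs detected on all arrays did not overlap when taken relative to the same family mean. Because the values of 1 array sum to 0, a low value of one member raises the others.

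**Figure D4:**
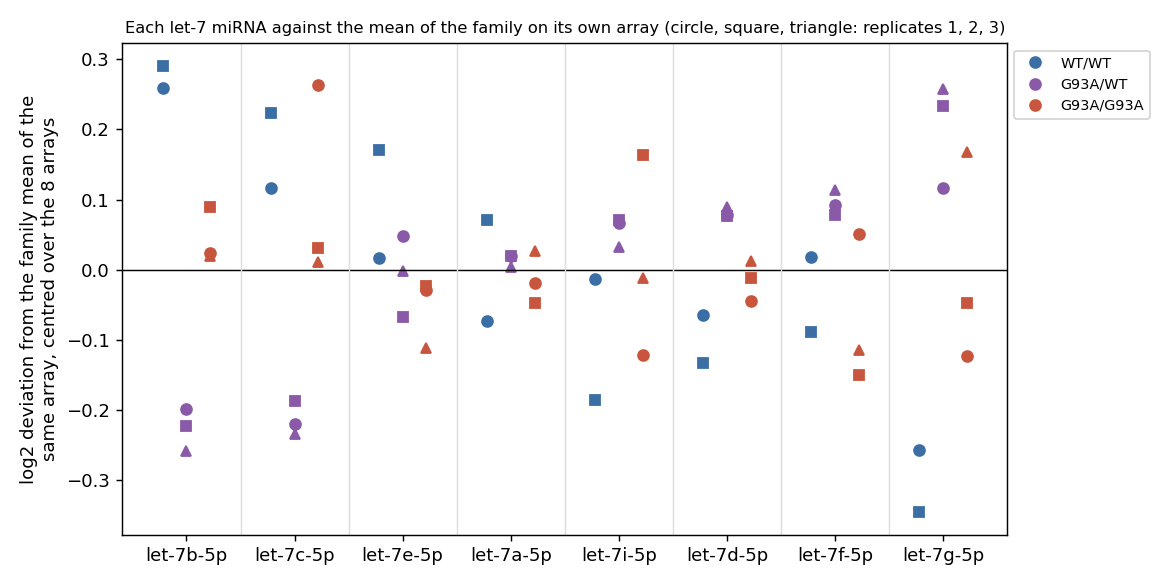
Log2 deviation of each member from the mean of the 8 members on the same array, centred over the 8 arrays, by co-culture, with 1 point per array. The G93A/WT points of let-7b-5p (mean −0.23) and let-7c-5p (mean −0.21) are below and those of let-7g-5p (mean 0.20) above the WT/WT points; array scaling does not enter these values.

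As a description over the 8 arrays, which share groups and brightness, the Pearson correlation of log2 levels between 2 members ran from −0.28 to 0.92 with a median of 0.65. The highest was between let-7a-5p and let-7e-5p, which differ by 1 base and come from different chromosomes. Members encoded together had correlations of 0.88 (let-7b-5p with let-7c-5p), 0.91 (let-7d-5p with let-7f-5p), 0.88 (let-7a-5p with let-7d-5p) and 0.85 (let-7a-5p with let-7f-5p). The lowest were those of let-7g-5p with let-7b-5p (−0.28) and with let-7c-5p (−0.27). The 4 pairs that differ by 1 base had a median correlation of 0.87, the 8 pairs with 2 differences 0.69, the 8 pairs with 3 differences 0.28 and the 6 pairs with 4 differences 0.41. With 6 differences, let-7d-5p and let-7i-5p correlated at 0.91, so the correlation did not fall steadily with the number of differences. The GC count of the 8 members and their difference between G93A/WT and WT/WT had a correlation of −0.62, beside −0.13 between GC share and difference over the 453 tested miRNAs with a sequence in RefSeq.

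Relatives outside the 9 members were then read on the same arrays. Among the 1608 array miRNAs matched to a RefSeq mature sequence, 11 have the let-7 seed, the 9 members and let-7k and miR-1961, and let-7j and miR-202-3p share its first 6 bases. Of these, miR-1961 was detected on 0 arrays, and let-7j and let-7k were each detected only on G93A/G93A 1. The levels of miR-202-3p were 5.95 and 5.28 in WT/WT, 5.94, 5.95 and 5.92 in G93A/WT, and 5.20, 5.93 and 6.09 in G93A/G93A, with overlap between groups, and it passed in no comparison. These sequences, with bases 2 to 8 in capitals, show why they are grouped with let-7 only in part.
let-7j: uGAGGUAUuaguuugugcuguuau
let-7k: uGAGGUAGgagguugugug
miR-1961: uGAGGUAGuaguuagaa
miR-202-3p: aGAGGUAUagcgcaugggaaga

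A hairpin can yield a miRNA from each arm, and of the 11 opposite arms of the let-7 and miR-98 precursors on the array 10 were undetected on every array. The exception was let-7d-3p, at 1.75 and 1.46 in WT/WT, 1.12, 1.28 and 1.34 in G93A/WT, and 1.45, 1.77 and 2.12 in G93A/G93A. All G93A/WT arrays were below all other arrays after scaling only. Before scaling the groups overlapped, with signals of 2.34 and 2.43 in WT/WT, 2.33, 4.11 and 3.34 in G93A/WT, and 2.36, 2.60 and 4.47 in G93A/G93A. The scaled difference of let-7d-3p between G93A/G93A and G93A/WT was 0.53 ± 0.18 (adjusted p = 0.107, limma), against −0.32 ± 0.12 for let-7d-5p from the same hairpin, and neither passed. Unscaled signals of let-7d-3p were only 4.53 to 6.91 times their own error, so its levels are less precise than those of let-7d-5p. The hairpin Mirlet7d, at chr13:48536012-48536114 on the minus strand, is shown with the 5p arm and then the 3p arm in capitals because it is the only precursor of which both arms were detected on all arrays.
Mirlet7d: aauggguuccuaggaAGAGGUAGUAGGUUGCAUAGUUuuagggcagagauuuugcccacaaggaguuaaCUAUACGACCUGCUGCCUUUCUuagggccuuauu

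Several let-7 hairpins lie in clusters with miRNAs of the miR-99/100 and miR-125 families, which differ in seed from let-7. Of 5 such miRNAs tested, 2 fell in G93A/G93A against WT/WT and none rose, where 4.83% of all tested miRNAs fell: miR-125b-5p, with a log2 difference of −0.79 ± 0.11 (adjusted p = 0.00929, limma), and miR-99b-5p, with −0.81 ± 0.14 (adjusted p = 0.0211). Levels of miR-125b-5p were 9.78 and 9.87 in WT/WT, 9.28, 9.45 and 9.41 in G93A/WT, and 8.95, 9.01 and 9.14 in G93A/G93A, with no overlap between any 2 groups. Blocking on slide row left the differences as large, −0.84 for miR-125b-5p and −0.88 for miR-99b-5p, but neither call held (adjusted p = 0.0725 and 0.110, limma), nor did either hold within the shared row (0.142 and 0.128). The same was true without WT/WT 1 (0.0662 and 0.0947), without WT/WT 2 (0.0558 and 0.103), with the percentile over each array's own detected miRNAs (0.102 and 0.162) and without scaling (0.489 and 0.494). The call of miR-99b-5p was also lost without G93A/G93A 2 (0.0551), with the replicate block (0.0939), with miRNAs numbered below and from 1000 centred separately (0.0587) and with no filter on dim miRNAs (0.106). Over all 22 alternatives the difference of miR-125b-5p stayed between −0.85 and −0.63 and that of miR-99b-5p between −0.88 and −0.64.

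The other 3 had differences of −0.92 ± 0.24 (miR-100-5p, adjusted p = 0.0732, limma), −0.47 ± 0.17 (miR-99a-5p, adjusted p = 0.140) and −0.24 ± 0.12 (miR-125a-5p, adjusted p = 0.263). The median of the 5 was −0.79, beside −0.01 over all tested miRNAs. For comparison let-7e-5p, encoded next to miR-99b and miR-125a, differed by −0.34. The 5 passed in neither of the other comparisons between groups, with medians of −0.31 in G93A/WT against WT/WT and −0.35 in G93A/G93A against G93A/WT.

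The miRNAs whose levels most resembled the mean of the 8 members over the 8 arrays, among 415 other miRNAs detected on all arrays, were miR-299b-5p (r = 0.94), miR-322-5p (0.89), miR-20a-5p (0.87), miR-495-3p (0.86) and miR-103-3p (0.86). None of them passed in any of the 4 comparisons. Within the family, the members closest to the mean of the other members were let-7a-5p (r = 0.97) and let-7e-5p (0.90), and the least close were let-7b-5p (0.33) and let-7c-5p (0.32).

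Markers of other sources were read beside these values. Of 6 erythroid and serum miRNAs on the array, 4 were detected on all arrays, with summed scaled signals of 2271 to 2344 in WT/WT, 2390 to 2663 in G93A/WT and 2053 to 2700 in G93A/G93A, and miR-144-3p was undetected. Of 4 leukocyte and platelet miRNAs only miR-223-3p was detected. The 6 detected fibroblast-enriched miRNAs of 7 summed to 1268 to 1405 in WT/WT, 1392 to 1502 in G93A/WT and 816 to 1144 in G93A/G93A, and miR-145a-5p was undetected. The 5 detected epithelial miRNAs of 7 summed to 138 to 166 in WT/WT, 61.2 to 85.0 in G93A/WT and 0 to 5.36 in G93A/G93A, while miR-200a-3p and miR-141-3p were undetected. The summed signals of the family were 1952 to 2372 in WT/WT, 1636 to 2075 in G93A/WT and 1746 to 1826 in G93A/G93A. The part of these other sources in the let-7 values was not tested.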

How the data were processed

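Per the file headers, each deposited file lists for every miRNA a total gene signal, a linear intensity, beside an error and a flag for detection; the background method was not given in the sources used here. The authors' processed table, from its values, also holds linear intensities, uncentred (array medians 25.4 to 28.1) and of a normalization not stated in these sources, for 8 of the 9 members.

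Signals were scaled to the 75th percentile of the 423 miRNAs detected on all arrays, floored at 1.52 units and taken to log2. The 538 miRNAs detected on at least 2 arrays were fitted with limma 3.58.1 (R 4.3.3), with 1 spread for the 3 groups, and p-values were adjusted by Benjamini-Hochberg over all of them. In simulated data the fit recovered large changes when few miRNAs changed. When nearly as many changed as did not, more unchanged miRNAs were called. All simulated miRNAs had the same spread and were detected on all arrays, unlike the real ones. Recovery was checked only at a change larger than any let-7 difference, so the power for this family was not tested. The scaling takes most miRNAs as unchanged. Same-numbered arrays of different groups had correlations of deviations from −0.31 to 0.31, so the numbers were not taken as pairs. All 9 members are named, the clustered miRNAs by a list and the 5 similar miRNAs by correlation. The members, lists and tests were chosen with earlier results of these data known. Sequences and coordinates are RefSeq's for GRCm38.p6.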

Additional observations from a re-analysis of the deposited data

How the results depend on the processing

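In 22 alternative settings, no member passed in G93A/G93A against WT/WT in any, and of 731 single-member values 664 kept their sign and their side of the threshold. The median of the members kept its sign in every setting of each comparison. The precision rests on 8 arrays in groups of 2 or 3, and miR-98-5p was near the lowest detectable signal.

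Counts and medians here are over all 9 members, or over 8 in the settings where miR-98-5p has no value. A call of miR-98-5p is not read as a result. Comparisons are given in the order G93A/G93A against WT/WT, G93A/WT against WT/WT, G93A/G93A against G93A/WT and G93A/WT against the midpoint. Without scaling, the member medians were −0.037, 0.93, −0.88 and 0.92, and 1, 6 and 7 members passed in the last 3. With the percentile over each array's own detected miRNAs, the medians were −0.053, 0.58, −0.53 and 0.57, and 1 member passed in the second and 4 in the fourth. In those 2 comparisons 42 and 102 of 538 tested miRNAs passed, all of them higher. With a block for slide row, the last 2 medians were −0.51 and 0.39, and with miRNAs numbered below and from 1000 centred separately they were −0.10 and 0.10. Leaving out 1 array at a time gave medians of −0.27 to −0.047, 0.029 to 0.27, −0.37 to −0.20 and 0.12 to 0.33, and 0 to 2, 0 to 4 and 0 to 2 members passed in the last 3, all of them without G93A/WT 1. Without that array 35, 82 and 52 of 529 tested miRNAs passed in these 3 comparisons. The cause of these shifts was not tested.

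Reversed signs in G93A/G93A against WT/WT were those of let-7d-5p and let-7i-5p: 0.059 and 0.084 without scaling, 0.043 and 0.068 with each array's own percentile, 0.015 and 0.010 with quantile normalization and 0.035 and 0.041 in the authors' values, and for let-7i-5p 0.00076 with probe classes centred and 0.017 without G93A/G93A 1 (from −0.16 over the left-out arrays). In G93A/WT against WT/WT, let-7a-5p was at −0.063 scaled on the median and −0.043 with probe classes centred, and from −0.11 to 0.23 over the left-out arrays, below 0 without WT/WT 1 or G93A/WT 3. There let-7e-5p was at 0.70 without scaling, 0.34 with each array's own percentile, and 0.12 with the row as a block or within row 1, and from −0.24 to 0.12 over the left-out arrays, above 0 without WT/WT 2 or G93A/WT 1. Also, let-7b-5p was at 0.30 and let-7c-5p at 0.42 without scaling, and let-7c-5p at 0.062 with each array's own percentile. In G93A/G93A against G93A/WT, let-7b-5p and let-7c-5p were at −0.56 and −0.51 without scaling, −0.22 and −0.17 with each array's own percentile, −0.22 and −0.25 with the row block, −0.022 and −0.00093 in the authors' values, and let-7c-5p was at −0.034 with quantile normalization. Over the left-out arrays they ranged from −0.043 to 0.11 and from −0.015 to 0.16, below 0 only without G93A/WT 1. Against the midpoint they were at 0.43 and 0.47 without scaling and 0.080 and 0.12 with each array's own percentile, let-7c-5p was at 0.033 with the row block and let-7e-5p at −0.032 with probe classes centred.

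Over all tested miRNAs the calls numbered 46, 21, 57 and 40, and between 7 and 56, 0 and 130, 0 and 149, and 4 and 315 over the alternatives; the row block gave 7, 16, 0 and 4, and without scaling 14, 130, 149 and 315. With the replicate block the counts were 10, 8, 37 and 12, no member passed, and the member medians were −0.24, 0.13, −0.27 and 0.22; the shared numbers are not shown to pair the arrays. Groups were fitted alone only for the first 3 comparisons, no slide row holds both groups of the third or all groups of the fourth, and miR-98-5p has no value without G93A/WT 2 or 3, in the authors' values or among miRNAs detected on all arrays.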
